A study of Mus musculus with 8 samples.

Results

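vEC_4 is the smallest of the 4 venous endothelial clusters (vEC) that the study's authors drew from the RNA of single CD31+ cells of the mouse aorta-gonad-mesonephros (AGM), the region of the embryo where the first blood stem cells bud from the aorta. Its members were all cells that carry the name vEC_4 in the deposited annotation: 1372 of 15168 cells (9.05%), and 12.3% of the 11177 endothelial cells in vEC_1 to vEC_4, arterial endothelium (aEC) and pre-hemogenic endothelium (pre-HE). WT libraries held 815 of these cells and Meis1-flox/VE-Cre libraries held 557. The cells were profiled by CITE-seq, in which unique molecular identifiers (UMIs) number the RNA molecules of a cell and DNA-tagged antibodies mark its surface proteins. vEC_4 was compared here with vEC_1, vEC_2, vEC_3 and aEC within each library, to ask whether its RNA was venous, arterial-like or neither.

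There were 8 libraries, all from embryonic day 10.5, and each came from cells of 2 to 5 embryos pooled by genotype, so that a library and not an embryo was the replicate. The 5 WT libraries were C57BL/6 by their labels. The cells of WT 5 are named with the start Mf in the deposited table, where cells of WT 1 to 3 start with WT and those of WT 4 have no start, and the study also calls littermates of the floxed line without Cre WT, so whether WT 5 is of that line cannot be told from its label. The 3 Meis1-flox/VE-Cre libraries, called Cre libraries here and labelled as Meis1 knockout, came from embryos with loxP sites around exon 8 of both Meis1 alleles and a Cdh5-driven Cre transgene, which acts in endothelium and in the blood cells that arise from it. The labels give that line and not C57BL/6 as the strain, so genotype and strain cannot be told apart. No sample was treated with an agent. The study used several litters for its embryo work, but the sources used here do not tie each library to a litter or day, and p-values measured the spread between these pools.

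Veins and arteries are lined by endothelium of different identity. Nr2f2 (COUP-TFII) is the nuclear receptor that keeps venous identity by repressing the Notch pathway, Nrp2 is a co-receptor for VEGF-C and semaphorins, and Ephb4 is the venous receptor for the arterial ligand ephrin B2. Arterial cells instead use Notch ligands and receptors such as Dll4, Jag1 and Notch1, the Notch target Hey1, the transcription factor Sox17 and the gap junction proteins Gja4 and Gja5. The first lymphatic endothelial cells arise from embryonic veins when Nr2f2-positive cells switch on Prox1, the master transcription factor of the lymphatic lineage. Sinusoidal endothelium, in liver and other blood-filtering beds, is marked by the scavenger and hyaluronan receptors Stab1, Stab2 and Lyve1.

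Library depth ran from 20484880 to 79429128 UMIs, and median UMIs per vEC_4 cell were 19522, 20614, 19810.5 and 21003.5 in WT 1 to 4, 9294 in WT 5, and 8950.5, 6714 and 10353 in Cre 1 to 3. WT 5 thus had the depth of the Cre libraries. Within each library vEC_4 cells were shallower than vEC_1, vEC_2 and vEC_3 cells, with median ratios of 0.808, 0.687 and 0.709 (8 of 8 libraries each), and close to aEC cells (0.956, lower in 5 of 8). The library WT 4 stood apart in genes known to respond to low oxygen: in its vEC_4 cells Ankrd37 was at 100.0 CPM (the UMIs of summed cells brought to a common total) against 7.71 to 18.2 in the other libraries, and the glucose transporter Slc2a3 at 46.6 against 1.75 to 3.99. Slc2a3 was likewise highest in WT 4 in vEC_1, vEC_2, vEC_3, aEC and pre-HE. A doublet caller marked 83 cells (0.547%), of which 0 were in vEC_4, and all cells were kept. Among all cells, 33 barcodes occurred in more than 1 library, and 5 vEC_4 cells carried such a barcode.

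vEC_4 cells were endothelial by both markers used for that check. Cdh5, which encodes VE-cadherin, had a lowest, median and highest level over the 8 libraries of 373, 425 and 512 CPM, and Pecam1, which encodes CD31, of 152, 185 and 210.5 CPM. Cdh5 was above each of the 4 other clusters in 8 of 8 libraries, while Pecam1 was above vEC_2 and vEC_3 in 8 of 8, above vEC_1 in 7 and below aEC in 8. When every cell was thinned to 5000 UMIs, 84.6% of vEC_4 cells held a Cdh5 UMI (96.8% without thinning). Blood cells should lack the gene and so serve as a guide to free RNA. A Cdh5 UMI was held by 2.16% of erythro-myeloid progenitors (EMP) and 10.8% of megakaryocytes, so that guide was not a single level. Of 14 genes shared by all endothelium, 9 were higher than in vEC_3 in 8 of 8 libraries and 0 lower, where 12.8% and 18.1% of all genes were, and against aEC 4 were higher and 4 lower, near the 23.1% and 16.5% of all genes. Thinning left out 27 vEC_4 cells, 7 WT and 20 Cre. Median depths before thinning ran from 6714 to 21003.5 UMIs over libraries in vEC_4 and from 14516 to 53132 in EMP.

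By likeness, vEC_4 stood nearest to vEC_3. Across 7707 genes with a mean of at least 10 CPM over these clusters and pre-HE, the median within-library Pearson correlation of log2(CPM + 1) was 0.974 with vEC_3, 0.951 with vEC_2, 0.949 with vEC_1, 0.912 with aEC and 0.811 with pre-HE; these are descriptions across genes, which are not replicates and share each library's depth. Genes past 2-fold on that scale with the same sign in 8 of 8 libraries were 128 of 7597 (1.68%) against vEC_3, with 0.698% higher and 0.987% lower. They were 324 of 7561 (4.29%; 2.51% and 1.77%) against vEC_2, 336 of 7549 (4.45%; 3.03% and 1.42%) against vEC_1 and 552 of 7634 (7.23%; 3.33% and 3.9%) against aEC. Since the clusters were drawn from this RNA, none of these differences carries a test.

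The 3 venous genes that the study used, Nr2f2, Nrp2 and Ephb4, were highest in vEC_4. Nr2f2 ran from 246 to 347 CPM over the 8 vEC_4 sums with a median of 284, against means of 226 ± 24.5 (SD, n = 8 for these and the following means) in vEC_3, 126 ± 15.6 in vEC_2, 100.4 ± 18.2 in vEC_1 and 41.3 ± 9.01 in aEC. Nrp2 ran from 275 to 498 CPM with a median of 334, against 256 ± 23.2, 147 ± 11.4, 122 ± 8.99 and 78.3 ± 11.01 in the same order. Ephb4 ran from 68.3 to 94.3 CPM with a median of 76.8, against 54.6 ± 5.14, 37.5 ± 4.31, 36.9 ± 3.17 and 28.5 ± 4.71. In 8 of 8 libraries each gene was above its level in all 4 other clusters. The lowest vEC_4 library lay above the highest vEC_1, vEC_2 and aEC library for all 3. Against vEC_3 the ranges overlapped for Nr2f2 and Nrp2, and the mean log2 ratios were only 0.36 ± 0.11, 0.47 ± 0.20 and 0.53 ± 0.21. The summed level of the trio was 729 ± 87.2 CPM in vEC_4, at log2 ratios of 0.44 to vEC_3, 1.22 to vEC_2, 1.48 to vEC_1 and 2.28 to aEC. For all genes the share higher in 8 of 8 libraries was 12.8% against vEC_3, 19.5% against vEC_2, 21.2% against vEC_1 and 23.1% against aEC.

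The order of these levels, aEC lowest, then vEC_1, vEC_2, vEC_3 and vEC_4, held for Nr2f2 and Nrp2, while for Ephb4 vEC_1 and vEC_2 did not differ beyond their spread. Emcn, the endothelial sialomucin of veins and capillaries, had the same order except that aEC and vEC_1 did not differ beyond their spread (683 ± 64.3 and 671 ± 78.6 CPM). Emcn was at 962 ± 96.6 CPM in vEC_4 and 827 ± 91.0 in vEC_3. A wider venous list of 8 genes had 7 measured members. Higher in 8 of 8 libraries were 5 against vEC_3 (12.8% of all genes), vEC_2 (19.5%) and vEC_1 (21.2%), and 6 against aEC (23.1%). Flt4, the VEGF-C receptor of veins and lymphatics, was not among them, at 57.1 ± 6.66 CPM in vEC_4 and 66.8 ± 10.7 in vEC_3, and the chemokine-binding venular receptor Ackr1 was too low to be measured.

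**Figure D1:**
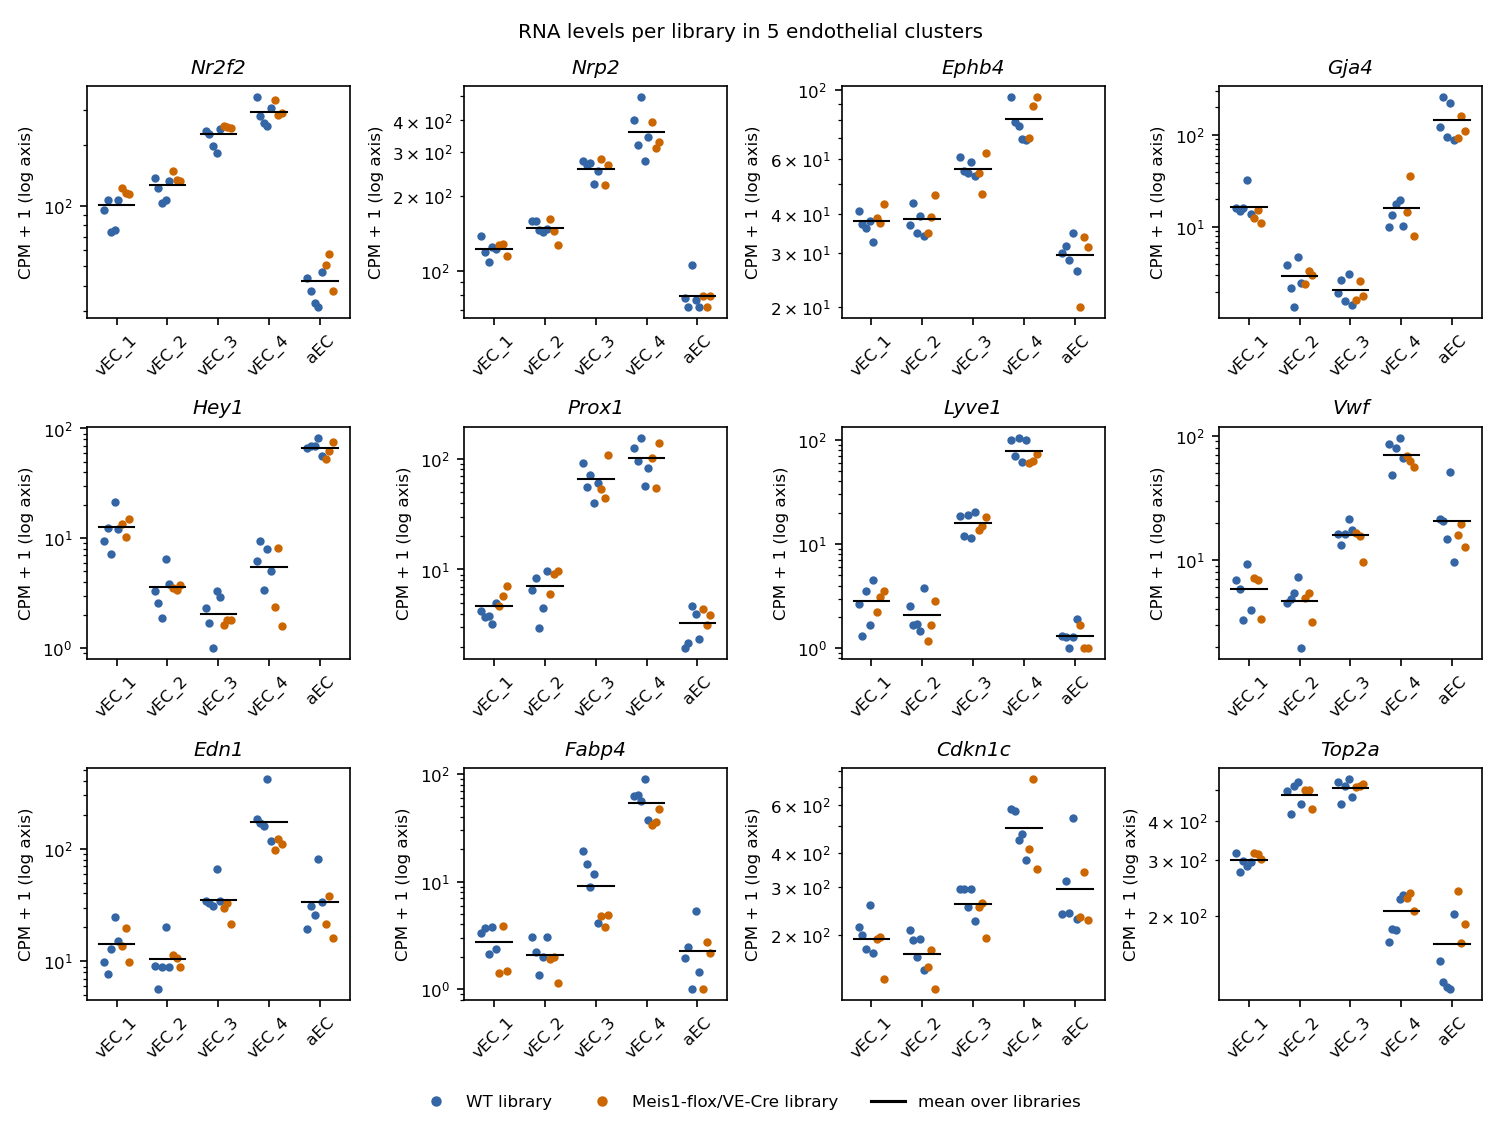
Levels of 12 genes in the summed cells of vEC_1, vEC_2, vEC_3, vEC_4 and aEC, as CPM + 1 on a log axis, with 1 point per library (blue, 5 WT; orange, 3 Cre) and a bar at the mean over 8 libraries. Nr2f2, Nrp2, Ephb4, Prox1, Lyve1, Vwf, Edn1, Fabp4 and Cdkn1c have their highest mean in vEC_4, Gja4 and Hey1 in aEC, and Top2a is lower in vEC_4 than in vEC_1 to vEC_3.

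Because the genes of the venous trio were highest in vEC_4, their promoters are shown, from 250 bases before to 50 after the start of transcription. They come from RefSeq on GRCm38.p6, 5′ to 3′ along each gene's strand, with the letters CACCC or its reverse complement GGGTG in capitals. These letters are the core that Krüppel-like factors can bind. They were found 1 time in the Nr2f2 window (chr7:70366697-70366996, minus strand), 3 times in that of Nrp2 (chr1:62703067-62703366, plus strand) and 2 times in that of Ephb4 (chr5:137349859-137350158, plus strand). Of 32851 promoter windows of this length, 57.5% held such a match. The nuclear receptor letters AGGTCA, which 16.3% of the windows held on either strand, were in none of these 3. A match or its lack describes these letters only.
Nr2f2: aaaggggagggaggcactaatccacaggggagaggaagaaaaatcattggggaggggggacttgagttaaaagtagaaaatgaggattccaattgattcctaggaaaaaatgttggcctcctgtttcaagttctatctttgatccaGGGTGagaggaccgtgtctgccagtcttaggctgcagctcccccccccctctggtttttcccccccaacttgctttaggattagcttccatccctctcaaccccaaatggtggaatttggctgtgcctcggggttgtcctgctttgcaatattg
Nrp2: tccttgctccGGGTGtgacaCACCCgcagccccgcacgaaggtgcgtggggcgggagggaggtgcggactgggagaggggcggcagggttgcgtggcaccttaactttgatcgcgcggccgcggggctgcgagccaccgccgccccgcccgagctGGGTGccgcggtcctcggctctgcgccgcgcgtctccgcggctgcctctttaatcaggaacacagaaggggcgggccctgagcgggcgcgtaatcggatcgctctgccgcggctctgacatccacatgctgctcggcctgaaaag
Ephb4: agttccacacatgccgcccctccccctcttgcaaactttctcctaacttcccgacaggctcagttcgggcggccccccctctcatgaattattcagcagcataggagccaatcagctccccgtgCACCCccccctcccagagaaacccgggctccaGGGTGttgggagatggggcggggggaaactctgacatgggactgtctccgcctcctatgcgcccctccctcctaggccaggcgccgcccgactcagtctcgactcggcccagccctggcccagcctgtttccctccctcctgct

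At the level of single cells the venous genes were widespread in vEC_4. After thinning to 5000 UMIs, 72.4% of cells held an Nr2f2 UMI (64.1 to 77.4% over libraries, 91.9% without thinning). That share was 63.8% in vEC_3, 36.9% in vEC_1, 15.6% in aEC, 0.980% in EMP and 9.78% in megakaryocytes. Nrp2 was detected in 76.2% of vEC_4 cells (92.0% without thinning), 1.71% of EMP and 6.82% of megakaryocytes. Ephb4 was detected in 34.2% of vEC_4 cells (63.4% without thinning) and 0.852% of EMP. Cells with Nr2f2 were thus a majority in every library.

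Arterial genes were not raised to the level of aEC. Gja4, the arterial connexin 37, ran from 7.12 to 34.8 CPM in vEC_4 with a median of 13.0, against 143 ± 65.1 in aEC and 15.6 ± 6.74 in vEC_1. Hey1 ran from 0.593 to 8.46 CPM with a median of 4.64, against 65.8 ± 9.54 in aEC, and Dll4 from 0 to 4.94 with a median of 1.92, against 40.9 ± 12.6. Every vEC_4 library lay below every aEC library for these 3 genes. Sox17, at 42.3 ± 13.8 CPM, was likewise below aEC (197 ± 37.2), vEC_1 (116 ± 15.0) and vEC_2 (90.6 ± 11.8) in 8 of 8 libraries.

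Of the 9 arterial genes that the study used, 8 were measured against aEC, and 6 were lower in vEC_4 in 8 of 8 libraries and 0 higher, where 16.5% of all genes were lower and 23.1% higher. In a list of 17 arterial genes that holds those 9, 13 were measured, 10 lower and 0 higher. Nrp1, the VEGF-A co-receptor, was at 141 ± 27.9 CPM against 264 ± 41.9, the Notch ligand Jag1 at 17.9 ± 2.31 against 50.3 ± 14.2 and the ephrin Efnb2 at 27.5 ± 4.99 against 55.6 ± 9.64. Notch1 did not differ beyond its spread (70.0 ± 9.50 and 72.0 ± 8.77 CPM).

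Against the other venous clusters the arterial genes gave no uniform direction. The sum of the study's 9 genes was at a log2 ratio of -0.92 to aEC, -0.19 to vEC_1, 0.011 to vEC_2 and 0.22 to vEC_3, and that to vEC_2 was -0.087 under TMM scaling, which estimates library factors from the bulk of genes. Gja4 was above vEC_2 (1.93 ± 1.05 CPM) and vEC_3 (1.09 ± 0.620) in 8 of 8 libraries and not apart from vEC_1, and Jag1 showed the same pattern. Gja5, connexin 40, was low throughout, from 0 to 10.4 CPM in vEC_4 with a median of 3.23. Cells with a Gja4 UMI made up 3.98% of thinned vEC_4 cells (1.33 to 8.07% over libraries; 7.12% without thinning), against 22.5% in aEC, 0.411% in vEC_3 and 0.772% in EMP. Of 969 thinned cells with Nr2f2, 31 also held Gja4 (3.20%), and of 376 cells without Nr2f2, 25 did (6.65%), a lower share among Nr2f2 cells in 7 of 8 libraries.

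The lymphatic and sinusoidal genes were a group, like the venous trio, in which vEC_4 and vEC_3 stood apart from the other endothelium. Prox1 ran from 53.0 to 154 CPM in vEC_4 with a median of 97.4, against 64.7 ± 23.8 in vEC_3, 6.10 ± 2.53 in vEC_2, 3.68 ± 1.25 in vEC_1 and 2.32 ± 1.062 in aEC. Lyve1, the hyaluronan receptor, ran from 58.9 to 105 CPM with a median of 70.7, against 15.0 ± 3.42 in vEC_3 and at most 1.84 ± 1.08 in vEC_1, vEC_2 and aEC. Prox1 therefore separated vEC_3 and vEC_4 from the rest with overlap between those 2, while for Lyve1 the lowest vEC_4 library lay above the highest vEC_3 library. The scavenger receptor Stab1 was at 172 ± 17.9 CPM and 119 ± 12.1 in vEC_3, above all 4 clusters in 8 of 8 libraries. Its relative Stab2 was at 16.7 ± 4.00 CPM, above vEC_1, vEC_2 and aEC in 8 of 8 libraries, and did not differ beyond its spread from vEC_3 (14.5 ± 3.89, higher in 5 of 8).

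Of the 10 genes of that list, 5 were measured against vEC_3, with 3 higher in 8 of 8 libraries. Against vEC_2 5 were measured with 4 higher, and against vEC_1 and aEC 4 each with 3 higher. In 8 of 8 libraries 0 were lower. Among all genes 12.8%, 19.5%, 21.2% and 23.1% were higher than in vEC_3, vEC_2, vEC_1 and aEC. The summed list was at 440.3 ± 66.6 CPM in vEC_4 and at log2 ratios of 0.60, 1.48, 1.63 and 1.76 to these clusters in turn. Reln and Ccl21a, which mark lymphatic endothelium once it has formed, were too low to be measured in vEC_4 as a whole.

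These genes were present in a minority of vEC_4 cells. In thinned cells Prox1 was detected in 25.7% (14.1 to 40.6% over libraries; 36.5% without thinning), against 15.8% in vEC_3, 1.49% in vEC_1 and 0.955% in EMP, and Lyve1 in 23.4% (16.7 to 29.2%; 36.4% without thinning), against 5.80% in vEC_3 and 0.329% in EMP. Of 314 cells with Prox1, 95 also held Lyve1 (30.3%), against 210 of 1031 without (20.4%), more in 7 of 8 libraries. Most vEC_4 cells thus gave no UMI of either gene at this depth, which does not show that they lacked the RNA.

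**Figure D2:**
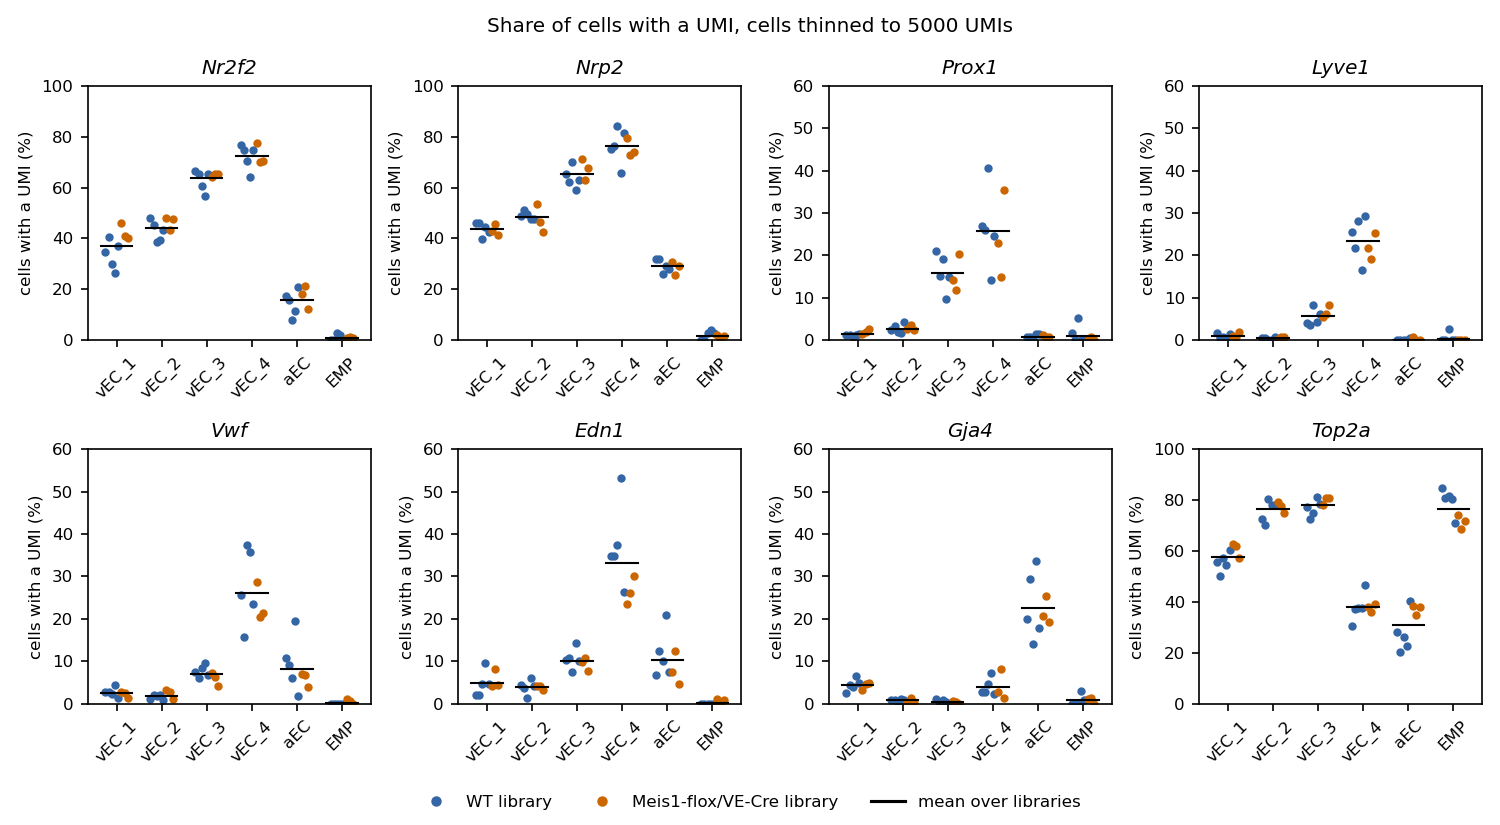
Percent of cells with at least 1 UMI of 8 genes after each cell was thinned to 5000 UMIs, in 5 endothelial clusters and in EMP. EMP is a guide to free RNA. Each library has 1 point (blue, WT, and orange, Cre) and a bar marks the mean. Nr2f2 and Nrp2 reach a mean of 72.4% and 76.2% in vEC_4, while Prox1, Lyve1 and Vwf stay between 23.4% and 26.1% and Top2a is at 37.9% against 78.1% in vEC_3.

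The genes above all 4 clusters in vEC_4 were led by Fabp4, Lyve1, Cldn11, Sdpr and Edn1. At a mean of at least 20 CPM, 355 of 5689 genes (6.24%) were above all 4 clusters in 8 of 8 libraries and 182 of 4971 (3.66%) were below, or 224 and 334 with TMM scaling, which lowered the ratios to vEC_1 by a mean of 0.11 on the log2 scale. Without WT 4, 395 genes were above, 353 of them in common, and 11 of the 12 leading genes stayed the same.

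Leading by the ratio to the nearest cluster was Fabp4, a fatty acid binding protein of capillary endothelium, with 32.5, 50.7 and 89.9 CPM as lowest, median and highest library, against 8.03 ± 5.72 in vEC_3 and at most 1.76 ± 1.04 in the other 3. Vwf, the clotting factor that endothelium stores, ran from 47.1 to 95.9 CPM with a median of 66.2, against 19.7 ± 13.1 in aEC and 14.7 ± 3.35 in vEC_3. Edn1, which encodes the vasoconstrictor endothelin-1, ran from 96.0 to 418 CPM with a median of 139, against 34.3 ± 13.2 in vEC_3 and 32.3 ± 20.6 in aEC. For Fabp4 and Edn1 every vEC_4 library lay above every library of the other 4 clusters. The Edn1 maximum was WT 4, and without it the highest was 183 CPM. Neither gene was unique to vEC_4 among endothelium, since pre-HE held 599 CPM of Vwf and 619.7 of Edn1.

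The other leading genes were Lyve1 (2.30), Cldn11 (2.20), Sdpr (2.15), Sost (1.85), Slit3 (1.59), Tmem119 (1.58), Slc18a2 (1.5), Gsg1 (1.48) and Ccdc80 (1.40), each with its mean log2 ratio to the nearest cluster in parentheses. Cldn11 encodes a tight junction claudin, Sdpr a coat protein of caveolae, Sost a secreted Wnt inhibitor, Slit3 a ligand of Robo receptors and Slc18a2 the vesicular monoamine transporter. Several were near 0 in vEC_1, vEC_2 and aEC: Cldn11 averaged 21.0 ± 8.74 CPM in vEC_4, 3.65 ± 1.43 in vEC_3 and at most 0.148 ± 0.236 in aEC, vEC_1 and vEC_2. Slit3 averaged 35.1 ± 5.66 CPM in vEC_4, 10.9 ± 1.42 in vEC_3 and 1.75 ± 0.997 in aEC. In each case vEC_3 was the nearest cluster or close to it.

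Genes lower in vEC_4 than in all 4 clusters were led by Bok (-1.1), a BCL2 family member, Tmem255a (-0.99), the mechanosensitive channel Piezo2 (-0.94), Lipt2 (-0.89), the tubulin Tubb6 (-0.87), the Wnt receptor Fzd10 (-0.87), the phosphatase Ptp4a3 (-0.85), the connexin Gja1 (-0.74), nestin (Nes, -0.69), Cd34 (-0.67), Odc1 of polyamine synthesis (-0.67) and Asns of asparagine synthesis (-0.66), again as log2 ratios to the nearest cluster. Cd34, the sialomucin of vessels and blood progenitors, had the reverse order of the venous genes. It averaged 798 ± 62.3 CPM in aEC, 640.2 ± 36.9 in vEC_1, 524 ± 29.6 in vEC_2, 291 ± 21.4 in vEC_3 and 183 ± 28.7 in vEC_4. Bok followed the same order, from 433 ± 58.5 in aEC to 33.3 ± 7.49 in vEC_4.

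Against single clusters, the 5 genes with the largest ratios were nearly the same each time. Lyve1 and Fabp4 were among them against all 3 other venous clusters, Adgrg6, an adhesion receptor of endocardium and endothelium, against vEC_1 (0.509 ± 0.472 CPM), vEC_2 and aEC, and the growth factor Bmp4 against aEC. Adgrg6 was at 39.4 ± 10.8 CPM in vEC_4 and 14.4 ± 2.59 in vEC_3. Bmp4 was at 108 ± 38.9 and 66.1 ± 26.7 CPM in these 2 clusters, and at 1.46 ± 0.691 in aEC. Against vEC_1 and aEC the genes with the lowest ratios included Vwa1, a matrix protein (1.64 ± 1.32 CPM in vEC_4, 71.8 ± 10.6 in vEC_1 and 232 ± 29.0 in aEC), and the transcription factor Foxq1 (1.20 ± 0.577, 38.5 ± 6.53 and 156 ± 19.4). Against vEC_3 the lowest 5 were all genes of mitosis, Prc1, Plk1, Ube2c, Aurka and Cdca2.

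Mitotic RNA was lower in vEC_4 than in the other venous clusters. Of 25 G2/M genes, 25 were lower than in vEC_3 in 8 of 8 libraries, 25 lower than in vEC_2 and 23 lower than in vEC_1, where 18.1%, 22.2% and 19.6% of all genes were, and against aEC 1 was lower and 1 higher. Top2a, the topoisomerase of dividing cells, ran from 166 to 236 CPM in vEC_4 with a median of 216, against 506 ± 30.3 in vEC_3, 479 ± 40.2 in vEC_2, 300.3 ± 14.3 in vEC_1 and 162 ± 44.7 in aEC. The vEC_4 libraries lay below all libraries of the other venous clusters and overlapped with aEC. In thinned cells Top2a was detected in 37.9% of vEC_4 cells (30.5 to 46.7%; 55.4% without thinning) and in 78.1% of vEC_3 cells. The 20 S phase genes differed less: 2 were higher and 6 lower than in vEC_3, where 12.8% and 18.1% of all genes were. Their sum was lower than in vEC_3 in 7 of 8 libraries, at a log2 ratio of -0.14. It was lower than in vEC_1 in 8 of 8 (-0.13) and than in vEC_2 in 4 of 8 (-0.043). Against aEC 13 of the 20 were higher and 0 lower, where 23.1% and 16.5% of all genes were.

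Among the inhibitors of cyclin-dependent kinases, Cdkn1c (p57) was higher in vEC_4 than in the 4 compared clusters by its mean, from 347 to 749 CPM with a median of 456, against 258 ± 36.2 in vEC_3 and 294 ± 107 in aEC, while pre-HE had 1354 ± 313. It was above vEC_1, vEC_2 and vEC_3 in 8 of 8 libraries and above aEC in 7. Cdkn1a (p21) showed another pattern, at 9.42 ± 7.69 CPM in vEC_4, 7.49 ± 1.498 in vEC_3 and 183 ± 46.2 in aEC. Of 19 genes of glycolysis and the hypoxia response, 17 were measured against vEC_3 with 2 lower and 0 higher, a lower share than the 18.1% of all genes that were lower. Against vEC_1 18 were measured, with 9 lower and 0 higher, where 19.6% of all genes were lower.

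**Figure D3:**
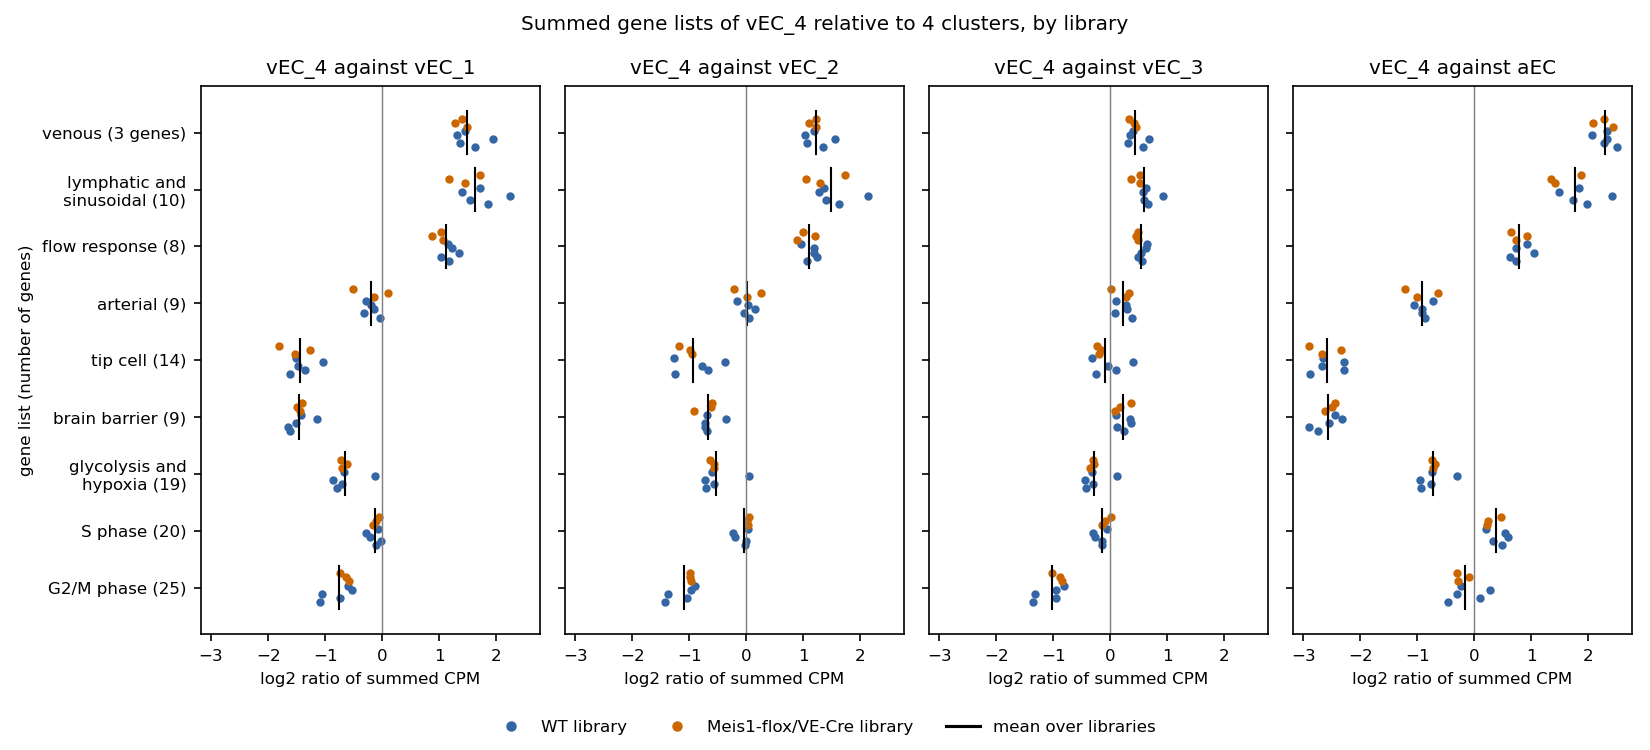
Log2 ratios of the summed CPM of 9 gene lists in vEC_4 to vEC_1, vEC_2, vEC_3 and aEC, with 1 point per library (blue, WT; orange, Cre) and a bar at the mean. Venous, lymphatic and flow lists lie above 0 in all panels, the G2/M list is at -0.75, -1.08, -1.02 and -0.16 in the 4 panels, and the tip cell and brain barrier lists are lowest against aEC at -2.59 and -2.56.

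As a summed list, genes that respond to blood flow were higher in vEC_4 than in the 4 compared clusters. Klf2, the transcription factor that laminar flow induces, ran from 419 to 557 CPM with a median of 488, against 412 ± 55.7 in vEC_3, 325 ± 56.0 in aEC, 276 ± 34.1 in vEC_2 and 263 ± 51.4 in vEC_1. It was above vEC_1, vEC_2 and aEC in 8 of 8 libraries and above vEC_3 in 7. Klf4, its relative, was at 42.4 ± 10.5 CPM and above all 4 clusters in 8 of 8 libraries. An 8-gene flow list, which also holds Edn1, had 7 measured genes. In 8 of 8 libraries 5 were higher than in vEC_1, 5 than in vEC_2, 3 than in vEC_3 and 5 than in aEC. The shares of all genes were 21.2%, 19.5%, 12.8% and 23.1% in that order. Against aEC 1 flow gene was lower, where 16.5% of all genes were. The summed flow list ran from 671 to 1084 CPM in vEC_4 and from 1242 to 2285 CPM in pre-HE. Of capillary genes, 3 of 4 measured were higher than in vEC_3 and 0 lower, beside 12.8% and 18.1% of all genes. Against aEC 4 of 6 were higher and 2 lower, beside 23.1% and 16.5%. Fabp5, a fatty acid binding protein, was at 547 ± 204 CPM and 308 ± 69.3 in vEC_3, and Plvap, of the diaphragms of fenestrated capillaries, at 662 ± 83.1 and 534 ± 60.8, both above all 4 clusters in 8 of 8 libraries. The highest Fabp5 library was WT 4, at 1015 CPM.

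Genes of sprouting, of the brain barrier and of Wnt signaling were lower in vEC_4 than in aEC. Of 10 measured tip cell genes, which mark the leading cells of sprouts, 9 were lower than in aEC in 8 of 8 libraries and 0 higher. Against vEC_1 5 of 7 were lower, and 0 of 4 differed from vEC_3 in 8 of 8 libraries. Of all genes 16.5% were lower and 23.1% higher than in aEC, and 19.6% were lower than in vEC_1. Against vEC_3 12.8% were higher and 18.1% lower. Esm1 was at 0.516 ± 0.555 CPM in vEC_4 and 74.2 ± 22.2 in aEC. All 7 measured brain barrier genes were lower than in aEC, among them the glucose transporter Slc2a1 (74.1 ± 24.7 against 558 ± 86.3 CPM) and the Wnt effector Lef1 (18.9 ± 3.63 against 119 ± 14.6). Of 9 Wnt target genes, 3 were measured against aEC and all 3 were lower, with a summed log2 ratio of -3.06, and Notch targets were at -1.53 with 3 of 4 lower. Against vEC_3 these sums were at -0.35 and 0.20, and the brain barrier sum was higher in vEC_4 in 8 of 8 libraries (194 against 166 CPM, 0.22), with 1 of 3 measured members higher and 1 lower.

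Position and signaling genes are given beside the shares of all genes, of which 12.8% were higher and 18.1% lower than in vEC_3, and 23.1% higher and 16.5% lower than in aEC. Of the Hox genes, which mark position along the body, 8 of 10 measured were higher than in aEC in 8 of 8 libraries and 0 lower, and 4 of 13 were higher and 3 lower than in vEC_3. The summed Hox level was 447 ± 41.4 CPM in vEC_4, 380.4 in vEC_3, 278 in vEC_2, 212 in vEC_1 and 155 in aEC. Of 10 measured genes of BMP and TGF-β signaling, 6 were higher than in vEC_3 and 0 lower, with Id2, a BMP target, at 222 ± 20.4 CPM against 159.9 ± 16.6. Of 9 measured genes of VEGF and angiopoietin signaling 4 were higher than in vEC_3 and 0 lower, among them the receptors Kdr (472 ± 61.7 against 388 ± 47.4 CPM), Tek (115 ± 14.8 against 95.1 ± 7.52) and Tie1 (128 ± 15.95 against 87.0 ± 10.97). Among basement membrane genes, 4 of 11 were higher and 1 lower than in vEC_3, including Col18a1 (368 ± 32.9 against 254 ± 16.8 CPM), while against aEC 1 of 12 was higher and 6 lower.

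Genes of other cell types were at low levels. Summed CPM ranged over the 8 vEC_4 libraries from 4.79 to 64.1 for 11 myeloid genes, 7.12 to 37.7 for 6 megakaryocyte genes, 54.3 to 86.2 for 12 mesenchymal genes, 20.8 to 44.9 for 9 smooth muscle and pericyte genes and 1.58 to 6.04 for 8 epithelial genes. The mesenchymal sum was mostly Twist1 (17.9 ± 2.94 CPM), Snai1 (28.8 ± 5.78) and Col3a1 (12.5 ± 5.82), while Dcn and Lum had 0 UMIs in all vEC_4 cells, as did Cspg4 of pericytes, Cdh1 and Wt1 of epithelia, Sox10 and Foxd3 of neural crest and Gata1 of the erythroid and megakaryocyte lineages. A neural list of 8 genes summed to 131 ± 34.1 CPM, of which Stmn2 made up 128 ± 33.4. Mesenchymal, smooth muscle, epithelial and neural sums were higher than in vEC_3 by 0.43, 1.1, 0.59 and 0.62 on the log2 scale, and their part in the differences above was not tested. The 9 erythroid genes varied most, from 15.2 to 397 CPM, with the embryonic hemoglobin Hbb-y in 18.1% of thinned vEC_4 cells (3.12 to 39.5% over libraries; 34.5% without thinning) against 15.9% in vEC_3, 21.7% in aEC and 17.8% in EMP, and the source of this RNA was not tested.

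The 10 hemogenic genes summed to 90.2 ± 10.6 CPM in vEC_4, above vEC_3 (55.9), aEC (63.7), vEC_1 (50.4) and vEC_2 (42.7) in 8 of 8 libraries. The 2 measured members were Procr and the stem cell factor receptor Kit. Both were higher than in vEC_3 in 8 of 8 libraries, while against vEC_1, vEC_2 and aEC only Procr was. The shares of all genes that were higher were 12.8%, 21.2%, 19.5% and 23.1% in that order. Kit was at 27.1 ± 7.14 CPM in vEC_4, 24.1 ± 5.61 in vEC_3 and 34.4 ± 9.06 in aEC. Runx1, the transcription factor required for blood formation from endothelium, was detected in 0.542% of thinned vEC_4 cells (2.16% without thinning), 0.548% of vEC_1, 0.528% of vEC_2, 0.379% of vEC_3 and 0.181% of aEC cells, and 53.4% of EMP. Ptprc, which encodes the blood cell antigen CD45, was detected in 0.336% (0.567%), against 0.157% in vEC_3, 0.283% in aEC and 22.7% in EMP. Procr, which marks blood stem cells and their precursors, was higher in vEC_4 (42.2 ± 10.2 CPM) than in vEC_3 (15.8 ± 3.82), aEC (13.0 ± 3.50), vEC_1 and vEC_2 in 8 of 8 libraries, and was at 88.4 in pre-HE. Meis1 itself was low, at 8.26 ± 3.04 CPM in vEC_4, 6.99 ± 1.38 in vEC_3, 1.41 ± 0.473 in aEC and 31.4 in pre-HE.

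vEC_4 cells differed among themselves in Prox1. In thinned cells, 1031 held 0 Prox1 UMIs, 161 held 1, and 70, 31 and 21 held 2, 3 and 4. The WT libraries, in order, had 23, 9, 14, 16 and 23 cells with at least 2, a limit set after the values had been seen, and the Cre libraries 23, 15 and 30. They are a range and not a type, and the comparisons with the other vEC_4 cells have no test.

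In 8 of 8 libraries the Prox1-high cells had more Gria2, a glutamate receptor subunit (89.8 against 10.4 CPM), the netrin receptor Unc5b (35.5 against 6.85), Nnat (379 against 98.6), Edn3 (27.6 against 6.25) and the transcription factor Tbx1 (50.1 against 17.3). Flt4 (105 against 51.3 CPM), Nrp2 (602 against 327), Lyve1 (136 against 70.0) and Nfatc1 (37.8 against 20.2) were also higher in 8 of 8, while Vwf was higher in 2. Ccl21a (15.96 against 0.687 CPM) and Reln (17.4 against 0.291) were higher in 4 and 6 libraries. Stab2 (4.53 against 18.8 CPM), Stmn2 (19.4 against 142), Cd34 (89.0 against 195) and Sparcl1 (1.88 against 22.9) were lower in 8 of 8. Stab2 and Lyve1, both named above as sinusoidal, thus went in opposite directions among vEC_4 cells, with Flt4 and Nrp2 on the side of Lyve1.

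A smaller set held Gata4, a transcription factor of endocardium and other organs. A Gata4 UMI was found in 8, 9, 2, 65 and 3 cells of the WT libraries, in order, and 1, 14 and 2 cells of the Cre libraries, so that WT 4 (23.6% of its vEC_4 cells) and Cre 2 (8%) supplied most of them. Among the 4 libraries with at least 5 such cells, Hand2 (27.8 against 1.59 CPM), Pdlim3 (77.3 against 5.13), Tbx5 (22.6 against 0.326), Ackr3 (56.0 against 4.69), Tbx20 (14.2 against 0.655), Nfatc1 (58.6 against 20.7) and fibronectin, Fn1 (735 against 145), were higher in 4 of 4. Prox1 (22.1 against 89.3 CPM), Flt4 and Nrp2 were lower in 4 of 4. The cells kept endothelial RNA, with Cdh5 at 409 against 426 CPM. Hbb-y was at 674 against 82.4 CPM and higher in 3 of 4, and its part was not tested. Over all vEC_4 cells, 3 genes of an 8-gene endocardial list were measured, Nfatc1, Npr3 and Adgrg6. Each was higher than in vEC_1, vEC_2 and aEC in 8 of 8 libraries, and 2 of them than in vEC_3. This held for 21.2%, 19.5%, 23.1% and 12.8% of all genes in that order. Npr3 was at 38.3 ± 6.36 CPM against 13.5 ± 1.47 in vEC_3.

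Antibody tags were not used to draw the clusters, so they were tested. Tags were counted in 7 libraries, all but WT 4, and CD44 in 4, and the log2 ratio of mean tag counts per cell was compared within libraries by exact sign flips, two-sided, over 24 pairs of tag and cluster. With 7 libraries the smallest p is 0.0156. It gave an adjusted p of 0.0469 here, where 8 comparisons shared it. With 4 libraries CD44 could not pass 0.05. Of the 24 comparisons 8 passed (33.3%), all higher in vEC_4 and none against vEC_3.

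CD45.2, a leukocyte antigen, had mean counts per vEC_4 cell of 6.77, 16.3 and 76.8 in the lowest, median and highest library, and its log2 ratio was 0.71 ± 0.27 to vEC_1, 0.75 ± 0.34 to aEC and 0.27 ± 0.21 to vEC_2 (SD, n = 7, each higher in 7 of 7; exact sign-flip p = 0.0156, adjusted p = 0.0469). The CD43 ratio was 0.43 ± 0.095 to vEC_1 and 0.37 ± 0.11 to aEC, and the CD27 ratio 0.47 ± 0.21 and 0.41 ± 0.29, each higher in 7 of 7 libraries with the same p. CD41, a megakaryocyte and progenitor integrin, was higher than in aEC by 0.40 ± 0.42, again in 7 of 7. With a centred log ratio in place of the mean count, the ratios to aEC turned to -0.16 for CD41, -0.012 for CD43 and -0.025 for CD27, and 0 of the 24 comparisons passed, as when medians were used, whereas 18 passed per RNA UMI. Leaving out any library also gave 0. With 6 libraries the smallest p is larger, and more comparisons would have to share it to pass after adjustment. Against vEC_3 the mean ratios ran from -0.11 to 0.22.

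The tags were not mirrored by their RNA. Spn, which encodes CD43, was at 0.0762 ± 0.161 CPM in vEC_4, Ptprc at 0.435 ± 0.371 and Cd27 at 1.14 ± 0.756. In aEC these genes were at 0.0538 ± 0.152, 0.684 ± 0.997 and 5.32 ± 2.72 CPM. Their vEC_1 means were 0.118, 0.445 and 1.08 CPM, and Ptprc was at 0.378 in vEC_2. Itga2b, which encodes CD41, was at 7.03 ± 2.20 CPM in vEC_4 and 11.8 ± 2.58 in aEC. Cd27 and Itga2b were thus lower in vEC_4 than in aEC by their means, where their tags were higher. EMP cells had mean counts of 76.9 for CD45.2 and 358 for CD43, against 32.6 and 18.7 in vEC_4. The part of unbound antibody in these ratios was not tested.

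**Figure D4:**
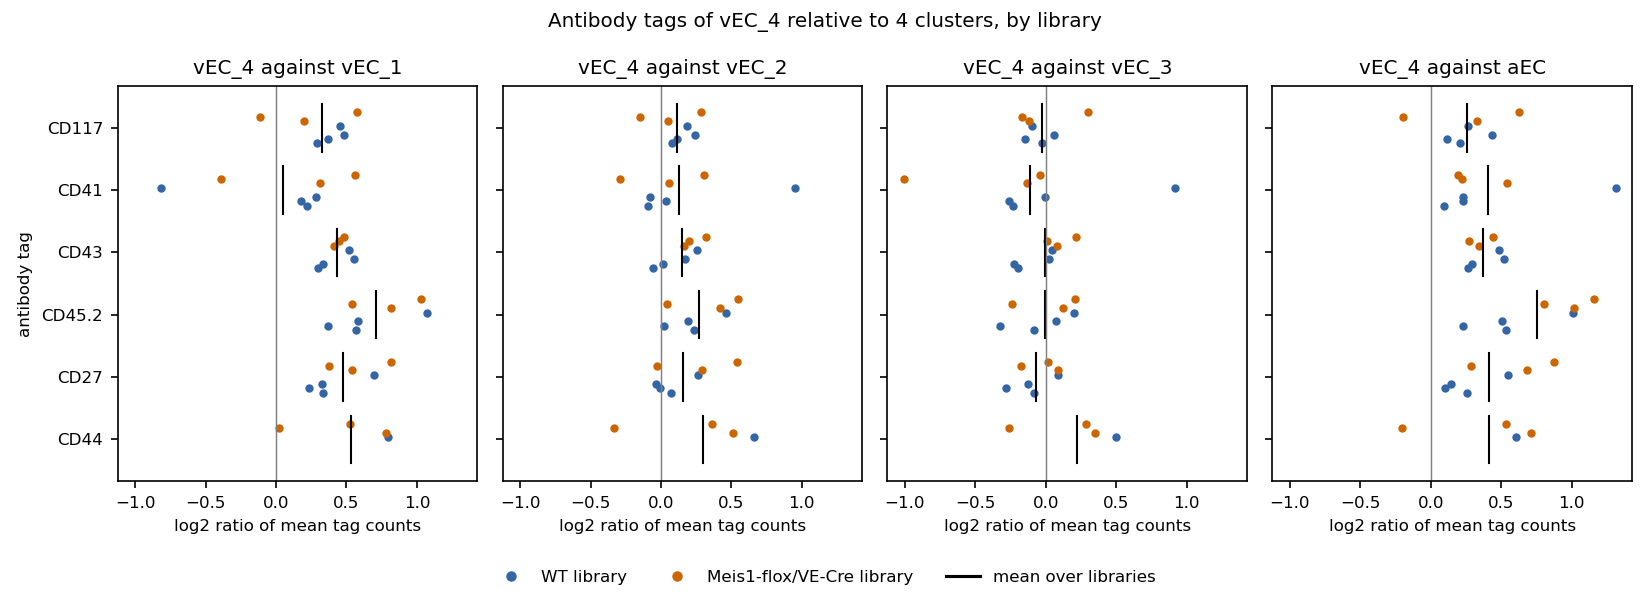
Log2 ratios of mean antibody tag counts per cell of vEC_4 to vEC_1, vEC_2, vEC_3 and aEC within each library (blue, 4 WT; orange, 3 Cre; CD44 in 4 libraries), with a bar at the mean. CD45.2, CD43 and CD27 lie above 0 in 7 of 7 libraries against vEC_1 and aEC and scatter around 0 against vEC_3.

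Loss of Meis1 in endothelium was then compared within vEC_4. For Meis1, the targeted gene, the WT libraries held, in order, 8.03, 10.5, 7.99, 10.2 and 10.8 CPM and the Cre libraries 6.49, 10.3 and 1.78. Cre 3 was lowest and Cre 2 lay within the WT range, and the log2 change was -0.68 ± 0.35 (SE; edgeR quasi-likelihood test, adjusted p = 0.574, 0.474 to 1.00 over the alternatives). Counts at the 3′ end of the RNA do not read the deleted exon 8, so this level is no check of the deletion. A CreERT2 row of the table held 0 UMIs in vEC_4 of every WT library and 2, 1 and 3 in Cre 1 to 3, or 0 against 11, 2 and 16 over endothelial cells, which follows the labels.

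The share of vEC_4 among endothelial cells did not pass a test between genotypes. The WT libraries, in order, had 12.8%, 11.4%, 11.8%, 12.4% and 13.8% and the Cre libraries 13.5%, 11.3% and 10.3%, and the ranges overlapped. Means were 12.4% ± 0.924 (SD, n = 5) and 11.7% ± 1.64 (n = 3), a difference of -0.715 percentage points (exact permutation test, two-sided, p = 0.429, where the smallest of 56 splits gives 0.0179). Without Cre 3 the difference was -0.0209 (p = 1, exact) and without Cre 1 -1.62 (p = 0.0952, exact).

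**Figure D5:**
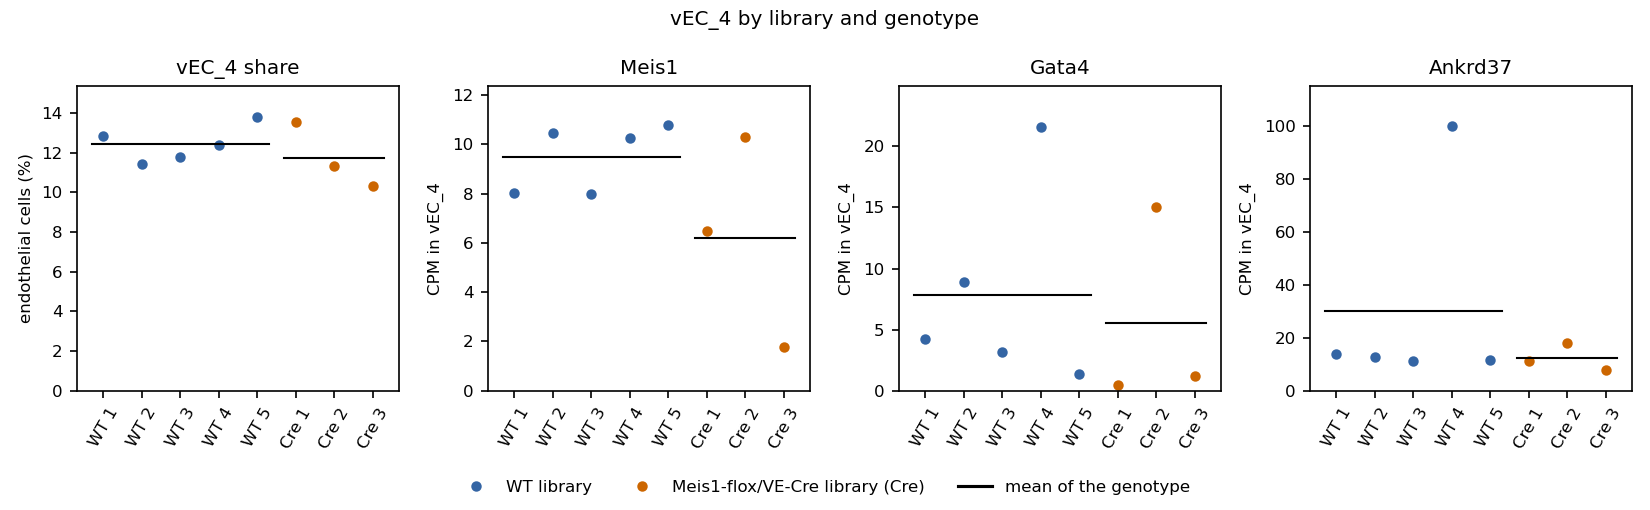
The vEC_4 share of endothelial cells and the level of Meis1, Gata4 and Ankrd37 in vEC_4 in each of 5 WT (blue) and 3 Meis1-flox/VE-Cre libraries (orange), with a bar at the mean of the genotype. Shares overlap between genotypes, Meis1 is lowest in Cre 3 at 1.78 CPM, Gata4 is highest in WT 4 and Cre 2, and Ankrd37 stands at 100.0 CPM in WT 4.

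No gene of vEC_4 passed between genotypes. With edgeR, 0 of 9691 genes (0%) were called at an adjusted p under 0.1, 895 had a p under 0.05 before adjustment and the smallest adjusted p was 0.177. DESeq2 called 23, and 615 had a p under 0.05 before adjustment. The result rested on WT 5, the WT library with the depth of the Cre libraries and with cell names of another kind: without it 285 genes passed. Without WT 4, 0 passed. Depth and genotype were thus partly confounded, and what depth, strain or genotype contributes to the 285 was not tested.

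The genes nearest to the threshold showed that pattern. The first 4 WT libraries held 325, 259.9, 517 and 392 CPM of AY036118, WT 5 held 107 and the Cre libraries 93.7, 64.9 and 59.9 (log2 change -2.09 ± 0.36, adjusted p = 0.177 with edgeR, 1.47e-15 to 1.00 over the alternatives). For the histone gene Hist1h4d these levels were 47.8, 70.1, 69.5 and 53.5, then 14.4, then 5.57, 7.91 and 14.2 CPM (log2 change -2.44 ± 0.45, adjusted p = 0.177, 4.34e-14 to 1.00 over the alternatives). For both, WT 5 lay far nearer to the Cre libraries than to the other WT libraries. Gm9843 had the same pattern, with a log2 change of -1.97 ± 0.37. Higher in the Cre libraries were Chtf8, of cohesion of sister chromatids (0.86 ± 0.17), the splicing factor subunit Sf3a2 (1.16 ± 0.23) and the Wnt cofactor Bcl9l (1.04 ± 0.22), each with an adjusted p of 0.177 or 0.178. Chtf8 ran from 30.2 to 33.5 CPM over the first 4 WT libraries and from 60.1 to 64.6 over the Cre libraries, with WT 5 between them at 49.4.

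Genes that mark vEC_4 gave no call either. The log2 change was 0.10 ± 0.12 for Nr2f2 (adjusted p = 0.820 with edgeR), -0.055 ± 0.17 for Nrp2 (0.940), 0.15 ± 0.14 for Ephb4 (0.754), 0.034 ± 0.29 for Prox1 (0.984) and -0.36 ± 0.18 for Lyve1 (0.551). Fabp4 levels were 62.1, 63.3, 55.1, 89.9 and 36.4 CPM for the WT and 32.5, 34.8 and 46.3 for the Cre libraries (-0.71 ± 0.24, adjusted p = 0.392). Edn1 levels were 183, 166, 157, 418 and 115 CPM for the WT and 96.0, 121 and 108 for the Cre libraries (-0.95 ± 0.32, adjusted p = 0.384, and -0.49 without WT 4). For both genes WT 5 lay within or beside the Cre range. Over the lists the median log2 change of tested members was 0.10 for the 3 venous genes, 0.024 for the study's arterial genes and 0.10 for G2/M genes, beside 0.000535 for all genes.

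Whether vEC_4 responded otherwise than its neighbours was tested as an interaction of genotype and cluster with edgeR. Against vEC_1 to vEC_3, 0 of 12178 genes (0%) passed and 516 had a p under 0.05 before adjustment. DESeq2 also called 0, with 219 under 0.05. Against aEC, 0 of 10435 (0%) passed and 397 were under 0.05 before adjustment, with 0 and 65 by DESeq2. Edn1 had the lowest p among genes that fell more in vEC_4 than in vEC_1 to vEC_3 (log2 difference of changes -0.65 ± 0.15, adjusted p = 0.697, 4.69e-05 to 1.00 over the alternatives) and passed when cells were thinned to 5000 UMIs, when WT 5 was left out or with no filter on low counts. Exosc7, an RNA exosome subunit, came next (-0.45 ± 0.11, adjusted p = 0.749, 0.128 to 1.00 over the alternatives). Its vEC_4 levels were 74.4, 85.0, 88.6, 86.1 and 82.2 CPM for the WT and 52.4, 61.7 and 57.5 for the Cre libraries. Gm26737, at 2.36 ± 0.53, rested on Cre 3 (23.1 CPM; 0.791 and 0.928 in the others) and turned to -0.65 without it. The others of smallest p were Madcam1 (1.59 ± 0.40) and Fen1 (0.42 ± 0.11), higher, and Tmcc2 (-3.14 ± 0.83), lower. Against aEC they were Gm26737, Coro1a and Igfbp5, higher, and Zrsr1, Junb and Rgs2, lower, each with an adjusted p of 1. Meis1 had an interaction of -0.55 ± 0.36 against vEC_1 to vEC_3 and -1.14 ± 0.63 against aEC, and passed in neither.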

How the data were processed

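RNA was measured in single CD31+ cells of 8 pools, of which 5 were WT and 3 Cre, and 6 antibody tags in the same cells, except in WT 4, and CD44 in WT 5 and the Cre pools only. Per the labels, the authors counted reads with Cell Ranger 3.0.2 against mm10, and per the study's methods they kept cells of over 2000 genes and under 10% mitochondrial UMIs and clustered the integrated RNA. They deposited raw UMI counts, not normalized, of 28014 genes and 6 tags in 15168 cells, and a table with the sample and cluster of each cell. All counts were whole, the fewest genes in a cell was 2001, and CD44 was missing in 6309 cells.

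Here counts were summed per library and cluster and given as CPM. Ratios within a library were log2((CPM + 1)/(CPM + 1)), which understates the change of low genes. A list member was measured against a cluster if its mean over both was at least 10 CPM, and all genes were counted by the same rule. The leading 12 genes each way had to be above or below all 4 clusters in 8 of 8 libraries at 20 CPM or more, and 5 each way were taken per pair. Genes were tested between genotypes with edgeR 4.0.16 in R 4.3.3 (TMM, filterByExpr, quasi-likelihood F test, two-sided, Benjamini-Hochberg, adjusted p under 0.1, no block, all 8 libraries), and DESeq2 1.42.0 as an alternative. From each such test the 3 genes nearest to the threshold in each direction were named besides Meis1. Shares were compared by exact permutation and tags by exact sign flips, with a threshold of 0.05. Cells were thinned once at random to 5000 UMIs, with a fixed seed. Scrublet (30 principal components, scanpy 1.11.5) searched each library for doublets. The gene tests were checked on simulated counts. The members and the gene lists were chosen with earlier results of these data known, and no pattern is independent support for them. Promoters were taken from RefSeq, where 6 of the 10 genes looked up had an entry. Results of 1 gene that these rules name are not reported here.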

Additional observations from a re-analysis of the deposited data

Results flagged for a closer look

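Of 66 values of the 5 WT libraries that were examined for a sample far from the others (Dixon's ratio over 0.71, which chance passes in about 1 in 20), 11 passed. The values were in part picked by hand with earlier results of these data known, and some share genes. The number that passed can therefore not be weighed against that rate. In vEC_4 of WT 4, 6 genes were highest: Edn1 at 418 CPM (others 115 to 183), Odc1 at 408 (163 to 196), Fabp5 at 1015 (449 to 591), Adm at 41.3 (0 to 1.80), Ankrd37 at 100.0 (11.2 to 13.95) and Slc2a3 at 46.6 (1.75 to 3.99). The summed tip cell list, which holds Adm, was at 239.9 CPM there (102 to 127). Stab2 was highest in WT 1 at 25.5 CPM (14.1 to 15.7), Reln in WT 3 at 16.8 (0 to 3.49) and Bmp4 in WT 5 at 142 (65.5 to 86.2). Bmp4 in WT 5 lay within the range of the Cre libraries, from 129 to 160 CPM. Median UMIs per vEC_4 cell were lowest in WT 5 at 9294 (19522 to 21003.5).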

How the results depend on the processing

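Over the alternatives, 262 values that answer a comparison stayed the same, 27 moved and 3 reversed. For the counts of genes apart from all 4 clusters, 355 above and 182 below became 213 and 92 after thinning to 5000 UMIs and 224 and 334 with TMM scaling, and 361 to 411 and 189 to 229 without 1 library. The summed arterial list against vEC_2 went from 0.011 to -0.087 with TMM and ranged from -0.023 to 0.042 without 1 library, negative without WT 3 (-0.0091) or Cre 2. The 0 genotype calls in vEC_4 became 23 with DESeq2, 202 with no filter on low counts, 15 after thinning and 0 to 285 without 1 library. The interaction with vEC_1 to vEC_3 gave 8 calls with no filter, 3 after thinning (Edn1, Adm and Cyp26b1) and 0 to 1 without 1 library (Cdkn1a without WT 4, Edn1 without WT 5, Gm26737 without Cre 1), and that with aEC 6 with no filter and 0 to 1 (Cdkn1a without WT 4). Gm26737 ranged from -0.65 to 3.00. The 8 tag calls became 0 with medians, 0 with centred log ratios (reversing CD41, CD43 and CD27 against aEC to -0.16, -0.012 and -0.025), 18 per RNA UMI and 0 to 0 without 1 library. The causes were not tested.

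Libraries 1 to 3 carry the same numbers in both genotypes. With the replicate number as a block 685 genes passed and with no replicate block 238 on the same 6 libraries. Deviations of same-numbered libraries correlated at -0.013, 0.105 and 0.155, which does not show pairing; each library correlated best with its own number for numbers 2 and 3 only. Depth limits genes of a few CPM: the smallest vEC_4 sum, WT 3, held 64 cells and 1252174 UMIs.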

Other observations

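Genes outside the comparisons also differed between vEC_4 and its neighbours. Interferon-related genes were higher in vEC_4, with a summed level of 629.7 ± 22.4 CPM for 10 genes and 505, 481, 499.6 and 455 CPM in vEC_1, vEC_2, vEC_3 and aEC. Of 4 measured members, 4 were higher than in vEC_2 and 4 than in aEC in 8 of 8 libraries. Another 2 comparisons gave 3 higher than in vEC_1 and 2 higher than in vEC_3. For all genes these shares were 19.5%, 23.1%, 21.2% and 12.8%. The nuclear RNA Malat1 ran from 4728 to 10555 CPM in vEC_4 with a median of 6586 and was above vEC_3 (5512 ± 1162) and the other 3 clusters in 8 of 8 libraries. Median mitochondrial shares per cell were above vEC_3 in 7 of 8 libraries, with a median ratio of 1.18.

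Immediate early genes, which tissue handling can induce, had a median log2 change of -0.58 between Cre and WT over 13 tested members. Junb levels were 54.1, 66.5, 75.9, 92.2 and 34.1 CPM for the WT and 26.4, 24.5 and 34.4 for the Cre libraries, so that WT 5 lay within the range of the latter (log2 change -1.16 ± 0.28, adjusted p = 0.183 with edgeR).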
